A study of Mus musculus with 380 samples.

Results

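The CDK inhibitors and the p53 group are represented by 9 of the 30324 genes listed in the deposited tables. They were listed by name, with earlier results of these data known. The members are the Cip/Kip inhibitors *Cdkn1a* (p21), *Cdkn1b* (p27) and *Cdkn1c* (p57), the INK4 locus genes *Cdkn2a* (p16Ink4a and p19Arf) and *Cdkn2b* (p15), *Trp53* itself, and the p53 targets *Mdm2*, *Ccng1* and *Gdf15*. The levels of these genes were followed in thymic epithelial cells (TECs) across age and genotype, in cycling and other cells, and in cells carrying cortical or medullary markers. Every member passed the filter on low values in the comparisons over all unsorted cells.

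Cells leave the cell cycle in G1 when cyclin-dependent kinases are held back. The Cip/Kip proteins bind CDK2 complexes, and the INK4 proteins bind CDK4 and CDK6 and keep the retinoblastoma protein active. p53 is a transcription factor that induces p21 after DNA damage or other stress, together with its own ubiquitin ligase Mdm2, which closes a negative feedback loop. In the thymus, TECs expand during fetal life and their number declines with age.

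CEL-Seq2 libraries of up to 96 single TECs, sorted as CD45-EpCAM+ cells, had been made from 10 mice, and the mouse is the replicate here. Each table holds 96 wells under the same well barcodes, so that barcodes shared between libraries do not mark shared cells. Wild-type cells came from 1 female at E16.5, 1 female at P0, 4 mice at P28 and 1 female at 1 year of age. At P28, 1 male carried no barcode system (non-barcoded male), and 1 male (barcoded male) and 2 females (female A, female B) did. The labels give no barcode status for the other split-volume mice, those at E16.5, P0 and 1 year and the transgenic P28 female and 1-year male, and they were taken as barcoded because the paper's methods single out 1 non-barcoded data set. *Foxn1-Fgf7* cells came from a male and a female at P28 and from a male at 1 year. The labels of the transgenic P28 female and 1-year male conflict, since the genotype names the transgene and the description reads WT, and the genotype was followed. The transgene expresses the epithelial growth factor Fgf7 from the *Foxn1* promoter, and the P28 male was labelled as FVB/N backcrossed to C57BL/6J, whereas the other mice carried the strain label C57BL/6. According to the paper's methods, barcoded mice carried *hU6-sgRNA-Hprt*, *Foxn1-cre* and *Rosa26-LSL-Cas9*, so that Cas9 cut *Hprt* in TECs, and a part of each well was set aside for the barcodes. The non-barcoded male gave RNA from entire wells, and the same was assumed for the transgenic P28 male, which has no barcode label. The wild-type mice other than at P28 were single and female, and both whole-volume mice were male. Protocol, sex and single-mouse differences therefore cannot be told apart from age or genotype beyond the term for well volume in the fit.

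Unsorted libraries gave 1055 to 5036 cells and 9449988 to 40884505 transcripts per mouse, with median transcripts per cell of 3768 to 12358. The labels were checked against defining markers. The summed level of 8 epithelial markers was 4288 to 9628 CPM (the transcripts of a gene over all transcripts of the cells summed, scaled to the same fixed total in every mouse), and that of 15 thymocyte markers 35.98 CPM at E16.5, 1304 CPM in female B and between these values elsewhere. Parathyroid markers summed to 25923 CPM in the 1-year wild-type mouse, with a range of 7.93 to 1980 CPM in the others. The 8 tuft cell markers summed to 1118 CPM in the non-barcoded male and to 14.4 to 300.6 CPM in the others. *Fgf7* stood at 20.3 to 100.2 CPM in the transgenic mice and at 0.2 to 6.3 CPM in wild-type mice. In sums over cells, fewer cells of a type and less RNA per cell cannot be told apart.

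The promoters of the p53 targets are shown because the letters of a p53 half-site can be looked for in them. RefSeq windows of 300 bases (GRCm38.p6), from 250 bases before to 50 after a transcript start, were found for 8 of the 9 genes, *Cdkn1c* being the one without an entry. The p53 half-site, a 10-base motif searched by its consensus on both strands, was present in 8.36% of all 32851 windows and in a window of 4 members: *Cdkn1a*, *Mdm2*, *Ccng1* and *Trp53*. Half-sites are in capitals, and each sequence is written 5′ to 3′ on the strand of its gene. The window at the upstream start of *Cdkn1a* is chr17:29090729-29091028 (+) and holds half-sites that start 73 and 51 bases before the transcript start. That of *Mdm2* is chr10:117710709-117711008 (-) and that of *Ccng1* is chr11:40755237-40755536 (-), and each holds 1 half-site farther upstream than those of *Cdkn1a*.
Cdkn1a: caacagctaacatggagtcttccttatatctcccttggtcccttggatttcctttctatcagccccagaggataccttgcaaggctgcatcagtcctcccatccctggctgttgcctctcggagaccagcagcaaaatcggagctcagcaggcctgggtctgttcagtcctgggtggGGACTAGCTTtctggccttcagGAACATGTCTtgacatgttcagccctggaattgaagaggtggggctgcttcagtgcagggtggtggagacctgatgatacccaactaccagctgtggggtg
Mdm2: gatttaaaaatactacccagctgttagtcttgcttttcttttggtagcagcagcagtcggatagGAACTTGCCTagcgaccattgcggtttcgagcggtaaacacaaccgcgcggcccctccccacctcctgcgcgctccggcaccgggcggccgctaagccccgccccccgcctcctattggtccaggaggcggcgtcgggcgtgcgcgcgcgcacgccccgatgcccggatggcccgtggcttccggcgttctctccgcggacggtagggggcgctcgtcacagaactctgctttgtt
Ccng1: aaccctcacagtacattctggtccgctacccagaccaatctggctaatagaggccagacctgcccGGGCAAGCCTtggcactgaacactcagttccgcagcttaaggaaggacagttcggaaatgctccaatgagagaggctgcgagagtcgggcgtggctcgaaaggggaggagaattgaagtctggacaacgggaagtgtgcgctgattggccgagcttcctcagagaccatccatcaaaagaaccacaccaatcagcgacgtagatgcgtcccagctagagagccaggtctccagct
A match is a description of these letters and says nothing of binding in TECs.

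Between E16.5 and P28, 6 of the 9 genes were called, among them *Cdkn2a* on 4 transcripts at E16.5, a call that carries no weight. *Cdkn1c* and *Trp53* were higher at E16.5, whereas *Cdkn1a*, *Cdkn2a*, *Cdkn2b* and *Gdf15* were lower. Changes were tested on transcripts summed per mouse with edgeR's quasi-likelihood test, with a term for well volume and Benjamini-Hochberg adjustment over all genes. As 29.5% of the 22471 genes tested were called in this comparison (13.1% higher and 16.4% lower at E16.5), the count of 6 members is read against that share, and the median log2 change was -0.92 over the members and -0.34 over all genes. At P0, *Cdkn2a*, *Cdkn2b* and *Gdf15* were lower than at P28 and 6 members did not pass, where 14.9% of all genes were called (6.53% higher and 8.32% lower, medians -0.60 and -0.23). The P0 call of *Cdkn2a* rests on 2 transcripts and likewise carries no weight. At 1 year, none of the 9 passed (0.392% of all genes called, medians -1.30 and -0.15), with 4 of them at an unadjusted p below 0.05. In *Foxn1-Fgf7* mice at P28, none of the 9 passed (0.583% called, medians -0.51 and -0.09), with 2 of them at an unadjusted p below 0.05. The 0.392% and 0.583% are at the adjusted threshold, and the share of all genes at the unadjusted one is not given here. The counts of 4 and 2 are therefore not read as a result about the members. DESeq2 called 2 members in each of these last comparisons, among 2.499% of all genes at 1 year and 3.096% in *Foxn1-Fgf7* mice. All 4 comparisons share the P28 wild-type mice, and a group of 1 mouse was assumed to vary like the groups of several. Cell type markers moved as well: 7 of 10 cTEC markers were higher at E16.5 and 10 of 10 at P0, while 9 of 9 and 5 of 9 Aire-stage mTEC markers were lower, as were 6 of 8 tuft cell markers at both ages and 10 of 15 thymocyte markers at E16.5. Late mTEC markers were lower as well (3 of 8 at E16.5, 4 of 8 at P0), as were 3 of 8 fibroblast markers at P0, and 48 of 52 mitotic genes were higher at E16.5. The part of these in the members' changes was not tested, and levels within marker classes are therefore given further on.

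**Figure D1:**
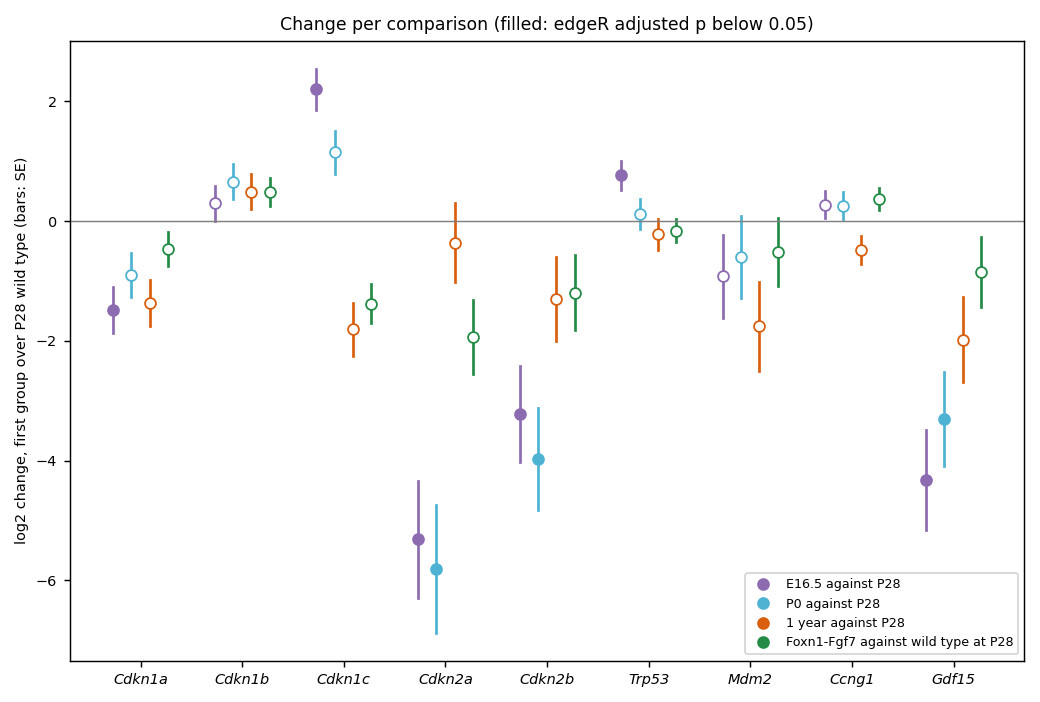
The log2 change of each of the 9 genes (y axis) in the 4 comparisons with P28 wild type, from edgeR on transcripts summed per mouse, with bars of 1 SE; filled points have an adjusted p below 0.05. Filled points are seen for 6 genes at E16.5 and 3 at P0, and none for 1 year or *Foxn1-Fgf7*. Those of *Cdkn2a* rest on 4 transcripts at E16.5 and 2 at P0 and carry no weight.

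Among the Cip/Kip genes, *Cdkn1a* (GRCm38.p6, chromosome 17, 29090979 to 29100722) encodes p21, the inhibitor that p53 induces. It stood at 232.4 CPM at E16.5 and 356 CPM at P0. The P28 mice had 355 CPM (non-barcoded male), 1106 CPM (barcoded male), 666 CPM (female A) and 629.2 CPM (female B), and the 1-year mouse had 301.6 CPM. The embryonic mouse and the aged mouse thus lay below every P28 mouse, and the newborn mouse overlapped with the lowest of them. The log2 change was -1.49 at E16.5 (SE 0.38, edgeR adjusted p = 0.026), -0.91 at P0 (SE 0.37, adjusted p = 0.12) and -1.36 at 1 year (SE 0.38, adjusted p = 0.22). Without the term for well volume the E16.5 change was -1.29 with an adjusted p of 0.20. DESeq2 called the 1-year difference (-1.29, adjusted p = 0.027).

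*Cdkn1b* (chromosome 6, 134920401 to 134925525) encodes p27, which is mostly controlled through protein turnover. Its level was 98.7 CPM at E16.5, 129.6 CPM at P0, 67.6 to 110.9 CPM in the P28 mice and 134.1 CPM at 1 year. No age or genotype comparison called the gene, the log2 change being 0.30 at E16.5 (SE 0.30, edgeR adjusted p = 0.45) and 0.66 at P0 (SE 0.29, adjusted p = 0.14).

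*Cdkn1c* (chromosome 7, 143458339 to 143461059) encodes p57, the imprinted inhibitor with roles in fetal growth. It measured 372.3 CPM at E16.5, 183 CPM at P0 and 27.4 CPM at 1 year. At P28, the non-barcoded male had 614 CPM, the barcoded male 81.2 CPM, female A 139.2 CPM and female B 90.3 CPM. The non-barcoded male was the highest of all 10 mice, so that the groups at E16.5 and P28 overlapped. The E16.5 change of 2.20 (SE 0.34, edgeR adjusted p = 0.0063) compares split-volume mice after the volume term, and was 1.03 with an adjusted p of 0.53 without that term. In cycling cells alone it was 2.11 (adjusted p = 0.055). At P0 the change was 1.15 (SE 0.36, adjusted p = 0.064) with the term and -0.03 without it. The P0 change passed by DESeq2 (1.10, adjusted p = 0.043) and without the non-barcoded male, female A, the transgenic P28 male or the transgenic P28 female (1.06, 1.44, 1.03 and 1.04, adjusted p = 0.038, 0.037, 0.037 and 0.039). Omission of the non-barcoded male, the transgenic male or the transgenic female leaves the same contrast, the P0 mouse against the split-volume P28 wild-type mice. At 1 year the change of *Cdkn1c* was -1.81 (SE 0.44, edgeR adjusted p = 0.17), and -1.74 by DESeq2 (adjusted p = 0.0040).

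The transcripts of *Cdkn1c* at P28 came from few cells. At E16.5, the 1% of cells with most *Cdkn1c* held 13.7% of its transcripts, and 20.8% at P0, but 73.2%, 68.1%, 57.6% and 55.5% in the 4 P28 mice. A single cell of the non-barcoded male carried 1409 *Cdkn1c* transcripts. After each cell was thinned to 1000 transcripts, *Cdkn1c* was detected in 25.02% of cells at E16.5, 14.5% at P0, 4.02% to 10.4% at P28 and 2.21% at 1 year. On this measure, which is not weighted by the highest cells, the E16.5 mouse lay above all P28 mice. By contrast, *Cdkn1b* transcripts of the top 1% of cells made up 6.57% to 16.05% in every mouse. Libraries of 1 mouse differed in the same way, *Cdkn1c* ranging from 44.9 to 1691 CPM over the 20 libraries of the non-barcoded male (median 430.0 CPM) and from 0 to 1116 CPM over the 80 of the barcoded male (median 30.5 CPM). The tuft marker level of the non-barcoded male stands beside this, and its part in the *Cdkn1c* level was not tested.

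**Figure D2:**
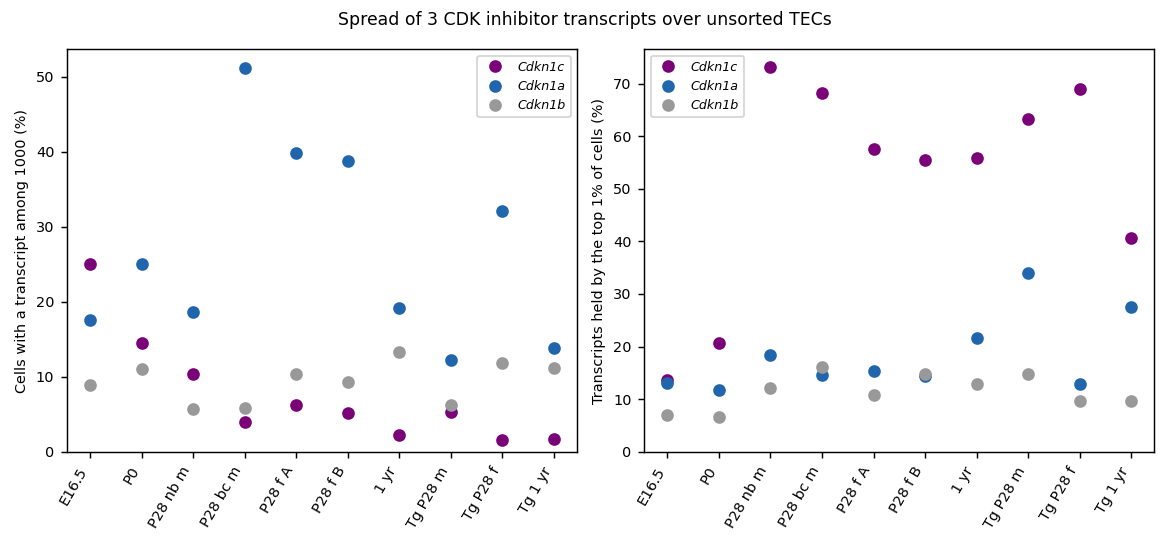
Spread of *Cdkn1a*, *Cdkn1b* and *Cdkn1c* over unsorted TECs of each of the 10 mice (x axis; nb, non-barcoded; bc, barcoded; m, male; f, female; Tg, *Foxn1-Fgf7*), as the percentage of cells with a transcript among 1000 (left y axis) and the percentage of transcripts held by the top 1% of cells (right y axis). *Cdkn1c* was most widely detected at E16.5 (25.02% of cells) and most concentrated in the P28 non-barcoded male (73.2%).

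Of the INK4 locus, *Cdkn2a* (chromosome 4, 89274473 to 89294619) encodes p16Ink4a and p19Arf, whose transcripts share their 3′ end and could not be separated by 3′ counting. The E16.5 mouse had 4 *Cdkn2a* transcripts in all (0.176 CPM) and the P0 mouse 2 (0.125 CPM). The P28 mice had 6.63, 10.2, 8.94 and 10.7 CPM (non-barcoded male, barcoded male, females A and B), and the 1-year mouse had 6.69 CPM. In cells led by Aire-stage mTEC markers, a class set further on, *Cdkn2a* had 10.5 CPM at E16.5 (2 transcripts) and 4.28 CPM at P0 (1 transcript). The P28 mice had 7.21 to 12.3 CPM in that class. Over all cells, both early mice lay far below the others. There, the P28 mean of 9.10 ± 1.80 CPM (SD, n = 4) was 51.8 times the E16.5 level (95% counting interval 20.2 to 190.2). The same mean was 72.7 times the P0 level (20.1 to 600.6). edgeR gave adjusted p values of 0.0099 and 0.019, with fitted log2 changes of -5.31 and -5.81 that depend on the prior count at so few transcripts. The gene passed the filter on low values only through the other mice, where it is higher, so these calls carry no weight.

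*Cdkn2b* (chromosome 4, 89306289 to 89311032), the neighbour of *Cdkn2a*, encodes the TGFβ-inducible inhibitor p15. It stood at 5.18 CPM at E16.5 and 3.13 CPM at P0, against 48.9, 66.3, 75.7 and 61.4 CPM in the P28 mice in the same order and 23.2 CPM at 1 year. Values at the early ages did not overlap with those at P28. The log2 change was -3.22 at E16.5 (SE 0.80, edgeR adjusted p = 0.023) and -3.97 at P0 (SE 0.85, adjusted p = 0.027). At 1 year it was -1.30 (SE 0.70, adjusted p = 0.45). Without the barcoded male the adjusted p was 0.058 at E16.5 for *Cdkn2b*. At P0, the calls of all 3 genes were lost without this mouse, with adjusted p of 0.055 for *Cdkn2a*, 0.069 for *Cdkn2b* and 0.078 for *Gdf15* at changes of -5.69, -3.89 and -3.12. Without female A or female B, adjusted p at P0 was 0.053 and 0.057 for *Cdkn2b* and 0.067 and 0.068 for *Gdf15*. Without the non-barcoded male, the transgenic male or the transgenic female, the 1-year change of *Cdkn2b* was -1.51, -1.43 and -1.39. That of *Cdkn1c* was then -1.89, -1.80 and -1.76 and that of *Gdf15* -2.18, -2.10 and -2.06. Each of these omissions leaves the 1-year mouse set against the split-volume P28 wild-type mice, so these fits repeat the same contrast.

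*Trp53* (chromosome 11, 69580348 to 69591873) encodes p53. Its level was 172.2 CPM at E16.5, 112.3 CPM at P0, 119.2, 132.01, 102.7 and 118.2 CPM in the P28 mice and 103.01 CPM at 1 year. The E16.5 mouse was above every other mouse, and the remaining ages overlapped. The change at E16.5 was 0.77 (SE 0.24, edgeR adjusted p = 0.049), at the edge of the threshold. It did not pass without the barcoded male, female A or female B (0.83, 0.69 and 0.73, adjusted p = 0.068, 0.10 and 0.12), without the term for well volume (0.84, adjusted p = 0.10), or in cycling cells alone (0.58, adjusted p = 0.13) and in other cells alone (0.63, adjusted p = 0.10).

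Of the p53 targets, *Mdm2* (chromosome 10, 117688875 to 117710758) encodes the ubiquitin ligase that degrades p53. It had 88.1 CPM at E16.5, 112.8 CPM at P0 and 58.6 CPM at 1 year, and at P28 103.4 CPM in the non-barcoded male, 128.9 CPM in female A and 136.5 CPM in female B. The barcoded male had 390.1 CPM, which no other mouse approached. Its 80 libraries ranged from 166.8 to 703.05 CPM with a median of 368 CPM, while the median library of the other P28 wild-type mice was at 93.8 to 133.1 CPM. High *Mdm2* was thus spread over the libraries of this mouse. The same mouse was highest in *Cdkn1a*, in *Atf3* (821 CPM, a gene named after its values were seen) and in the summed level of 7 integrated stress response genes (957 CPM, against 411.5 to 801.5 CPM in the other mice). Its cells also had the highest median share of mitochondrial transcripts (21.6%, against 11.1% to 17.7% in the other mice). Whether these levels are linked was not tested. The log2 change of *Mdm2* was -0.92 at E16.5 (SE 0.70, edgeR adjusted p = 0.32), -0.60 at P0 (SE 0.68, adjusted p = 0.54) and -1.76 at 1 year (SE 0.75, adjusted p = 0.37), and at P0 it was 0.11 without the barcoded male.

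*Ccng1* (chromosome 11, 40748552 to 40755309) encodes cyclin G1, a p53 target that recruits a phosphatase to Mdm2. It had 164.5 CPM at E16.5, 166 CPM at P0, 84.2 to 174.7 CPM at P28 and 115.01 CPM at 1 year. No age comparison called it (log2 change 0.28 at E16.5, SE 0.22, edgeR adjusted p = 0.35).

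*Gdf15* (chromosome 8, 70629393 to 70632470) encodes a secreted stress cytokine of the TGFβ family. In sums over all cells it had 1.76 CPM at E16.5, 3.63 CPM at P0 and 21.9, 55.1, 47.2 and 44.9 CPM in the P28 mice, and the 1-year mouse had 10.6 CPM. In cells led by Aire-stage mTEC markers, a class set further on, it had 52.8 CPM at E16.5, 68.5 CPM at P0 and 42.01 to 63.8 CPM at P28. Over all cells, the early mice lay below every P28 mouse, as for the INK4 genes. The log2 change was -4.32 at E16.5 (SE 0.84, edgeR adjusted p = 0.011), -3.31 at P0 (SE 0.78, adjusted p = 0.034) and -1.98 at 1 year (SE 0.71, adjusted p = 0.31).

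**Figure D3:**
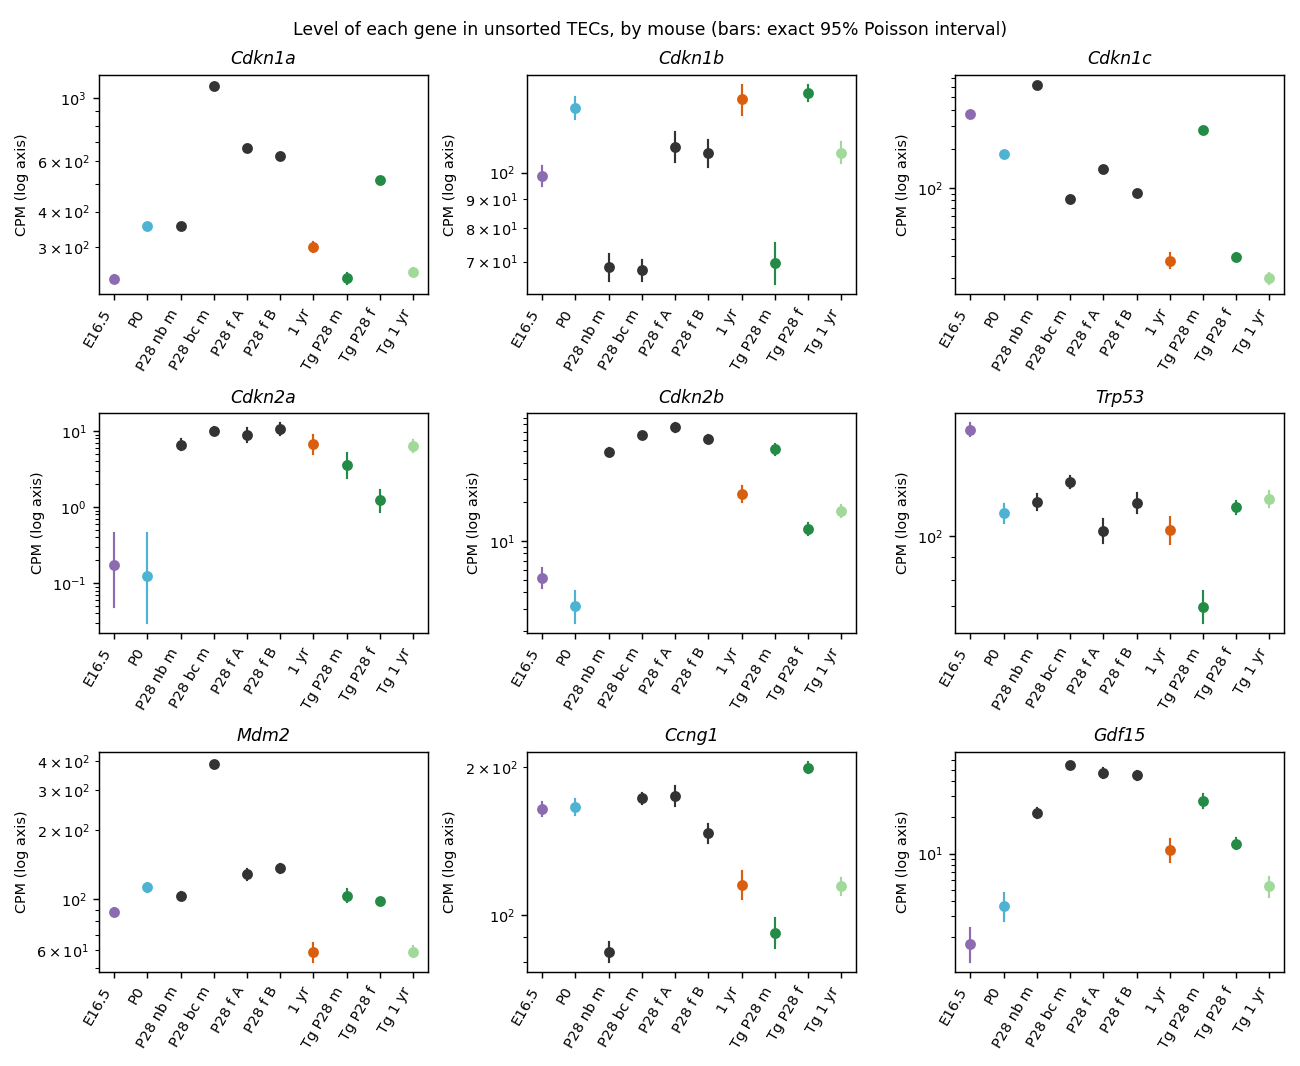
Level of each of the 9 genes (CPM, log axis, scale set per gene) in unsorted TECs of the 10 mice (nb, non-barcoded; bc, barcoded; m, male; f, female; Tg, *Foxn1-Fgf7*), with bars for the exact 95% Poisson interval, which covers counting error alone. *Cdkn2a*, *Cdkn2b* and *Gdf15* lay lowest at E16.5 and P0, and *Mdm2* stood apart in the P28 barcoded male at 390.1 CPM.

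In *Foxn1-Fgf7* mice at P28, none of the 9 genes passed, and the transgenic male and female lay far apart in several of them. *Cdkn1c* had 279.6 CPM in the transgenic male and 29.2 CPM in the female, *Cdkn2b* 51.2 and 12.3 CPM, *Cdkn2a* 3.61 and 1.22 CPM, and *Gdf15* 27.6 and 12.1 CPM. Both transgenic mice lay below every P28 wild-type mouse in *Cdkn2a*, and the female also did in *Cdkn1c*, *Cdkn2b* and *Gdf15*, where the male overlapped with these mice. The log2 change was -1.38 for *Cdkn1c* (SE 0.33, edgeR adjusted p = 0.14), -1.94 for *Cdkn2a* (SE 0.61, adjusted p = 0.24), -1.20 for *Cdkn2b* (SE 0.62, adjusted p = 0.43) and -0.85 for *Gdf15* (SE 0.58, adjusted p = 0.55). Without the non-barcoded male the changes of these 4 genes were -1.77, -2.96, -2.40 and -1.96, and without the transgenic male -1.69, -2.89, -2.33 and -1.89. Either omission leaves the volume term to take up the other whole-volume male. Both fits thus set the transgenic female alone against the split-volume P28 wild-type mice. Without the transgenic female, *Cdkn2b* was 0.34 and *Gdf15* 0.60. DESeq2 called *Cdkn1c* (-1.37, adjusted p = 0.0021) and *Cdkn2a* (-1.94, adjusted p = 0.018). *Cdkn1a* was at 232.9 CPM in the transgenic male and 516 CPM in the female, *Mdm2* at 103.8 and 98.1 CPM, *Trp53* at 69.9 and 115.95 CPM, *Ccng1* at 91.98 and 199 CPM and *Cdkn1b* at 69.6 and 137.4 CPM, and none of these passed. The summed level of 10 cTEC markers was 3737 CPM in the transgenic male and 22520 CPM in the female, against 1995 to 9513 CPM in the P28 wild-type mice, and its part in these levels was not tested.

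At 1 year of age, 1 *Foxn1-Fgf7* male stood against 1 wild-type female, and this contrast was not tested here. *Cdkn1c* was at 19.99 CPM (95% counting interval 18.1 to 22) in the transgenic and 27.4 CPM (23.9 to 31.3) in the wild-type mouse. *Cdkn2a* was at 6.34 and 6.69 CPM, *Cdkn2b* at 17.2 and 23.2 CPM, *Gdf15* at 5.32 and 10.6 CPM, *Cdkn1a* at 246 and 301.6 CPM and *Mdm2* at 58.98 and 58.6 CPM. Parathyroid markers differed between these mice by far more, at 1980 and 25923 CPM.

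Other genes of the pathway were taken as lists and are read against the shares called over all genes, 13.1% higher and 16.4% lower at E16.5 and 6.53% and 8.32% at P0. Of 29 further p53 targets tested, 3 were higher and 2 lower at E16.5, which is fewer in all than the share over all genes gives, with a median log2 change of -0.04 against -0.34 over all genes. At P0, 3 were higher and 2 lower. Compared with P28, the proapoptotic *Pmaip1* (Noxa) was lower by 3.17 at E16.5 (edgeR adjusted p = 0.040) and by 3.48 at P0 (adjusted p = 0.0499). The antiproliferative *Btg2* was higher by 1.65 and 1.46 at these ages. Of 5 other CDK inhibitors and retinoblastoma family genes, *Cdkn2c* (p18) was lower at E16.5 (-1.34, adjusted p = 0.016) and at P0 (-1.57, adjusted p = 0.021). Among 12 cyclins, kinases and E2F genes on which the inhibitors act, 4 were higher and 2 lower at E16.5, including *Cdk4* at 1.79 and *Ccnd1* at -3.07 (adjusted p = 0.0045 and 0.0036), and these alone passed at P0 (1.08 and -3.785, adjusted p = 0.032 and 0.0056). Of 10 regulators of the INK4 locus, 3 were higher at E16.5 and 2 at P0. *Hmga2*, a chromatin factor known to hold down this locus in fetal stem cells, was higher by 5.402 at E16.5 (adjusted p = 0.0012) and by 4.25 at P0 (adjusted p = 0.0032). Of 10 regulators and relatives of p53, *Chek1* and *Trp63* were higher at E16.5 (1.39 and 1.285), and *Trp63* alone passed at P0 (1.48). None of the genes of these lists passed at 1 year, and *Dcxr* alone passed in *Foxn1-Fgf7* mice (1.29, adjusted p = 0.028).

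Cycling cells were compared with other cells of the same mouse. Cells were thinned to 1000 transcripts and scored by 95 cell cycle genes that include no member. A cut derived from the distribution lay at 3 transcripts, where 7582 of 22410 cells were at the cut or 1 below it, so that it bounds a range and not a type. A stricter cut of 10 transcripts was therefore also taken, which left 1667 cells, with 354 cells at 9 or 10. By the lower cut, cycling cells made up 63.2% at E16.5, 43.4% at P0, 27.4% to 42.2% in the P28 mice, 22.9% at 1 year and 19.2% to 35.6% in the transgenic mice. By the stricter cut, cycling cells made up 25.7% at E16.5, 11.6% at P0, 4.59%, 5.23%, 4.51% and 8.56% in the P28 mice, 1.84% at 1 year, 3.33% and 6.14% in the transgenic male and female at P28 and 1.45% in the transgenic male at 1 year. In female B, 55.4% of these cells carried thymocyte transcripts, and 4.40% of cells were cycling without them.

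With the stricter cut, 8 of the 9 members differed between cycling and other cells, where 43.4% of 14799 genes were called (18.8% higher and 24.5% lower in cycling cells). *Trp53* and *Cdkn1b* were higher in cycling cells in 10 of 10 mice, by 0.80 (SE 0.11, edgeR adjusted p = 3.0e-05) and 0.50 (SE 0.07, adjusted p = 7.0e-05). *Trp53* had 204.9, 125.5, 270.7, 209.8, 167, 170.9, 201.2, 172.7, 166 and 263.9 CPM in cycling cells (E16.5, P0, non-barcoded male, barcoded male, females A and B, 1 year, then the transgenic mice), against 155.6, 110.1, 105.98, 124.5, 97.5, 109.7, 97.1, 63.2, 111.8 and 115.93 CPM in other cells. The P0 mouse was lowest in cycling cells and the other ages overlapped there, while within each mouse the cycling cells were above the others.

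Of the other CDK inhibitors, *Cdkn1c*, *Cdkn2b* and *Cdkn1a* were lower in cycling cells. *Cdkn1c* differed by -1.70 (SE 0.36, edgeR adjusted p = 0.0015) and was lower in 9 of 10 mice, for example 48.01 against 662.9 CPM in the non-barcoded male, but 211 against 178 CPM at P0. *Cdkn2b* differed by -1.08 (SE 0.23, adjusted p = 0.0018), *Cdkn1a* by -0.62 (SE 0.15, adjusted p = 0.0041) and *Cdkn2a* by -0.64 (SE 0.33, adjusted p = 0.13, not past the threshold). For *Cdkn2a* the adjusted p was 0.033 at -0.91 without the transgenic P28 female. *Cdkn1a* was lower in cycling cells in 8 of 10 mice, with 624.7 against 1157 CPM in the barcoded male and 175.3 against 261 CPM at E16.5. The exceptions were the 1-year mouse (392 against 296.8 CPM) and the transgenic P28 male (360.5 against 225 CPM).

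The p53 targets were lower in cycling cells, like *Cdkn1a* and unlike *Trp53*. *Gdf15* differed by -1.56 (SE 0.35, edgeR adjusted p = 0.0024) and was lower in 9 of 10 mice, 5 of which held 0 to 3 *Gdf15* transcripts in cycling cells, *Ccng1* by -0.43 (SE 0.14, adjusted p = 0.018) in 6 of 10 mice and *Mdm2* by -0.42 (SE 0.13, adjusted p = 0.015) in 7 of 10 mice. Of the 29 further p53 targets, 14 were lower and 1 higher, with a median of -0.33 against -0.11 over all genes. *Plk2* and *Plk3*, kinases of the polo family, were lower (-0.94 and -1.05), and *Pidd1*, a death domain adaptor, was higher (1.22). Of the 5 other inhibitors and retinoblastoma family genes, *Cdkn2c*, *Cdkn2d* and *Rbl1* were higher in cycling cells (2.07, 2.07 and 1.58, adjusted p = 8.1e-07, 9.3e-09 and 1.3e-06) and none lower. Both of these INK4 genes thus differed in direction from *Cdkn2b*. Other lists moved along: 13 of 15 thymocyte markers were higher in cycling cells, while 6 of 6 late mTEC, 5 of 6 tuft cell, 7 of 10 cTEC and 3 of 3 parathyroid markers and 8 of 9 early response and heat shock genes were lower. Without cells that carry thymocyte transcripts, *Cdkn1c* was at -1.66 (edgeR adjusted p = 0.0019) and *Cdkn1a* at -0.64 (adjusted p = 0.0025), and the part of the other lists was not tested. In the fit without the mouse as a block, *Trp53*, *Cdkn1b*, *Gdf15* and *Ccng1* passed, and *Cdkn1c*, *Cdkn2b*, *Cdkn1a* and *Mdm2* did not (adjusted p = 0.15, 0.088, 0.11 and 0.34). In the 4 wild-type P28 mice alone, *Ccng1* did not pass (-0.44, adjusted p = 0.055).

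**Figure D4:**
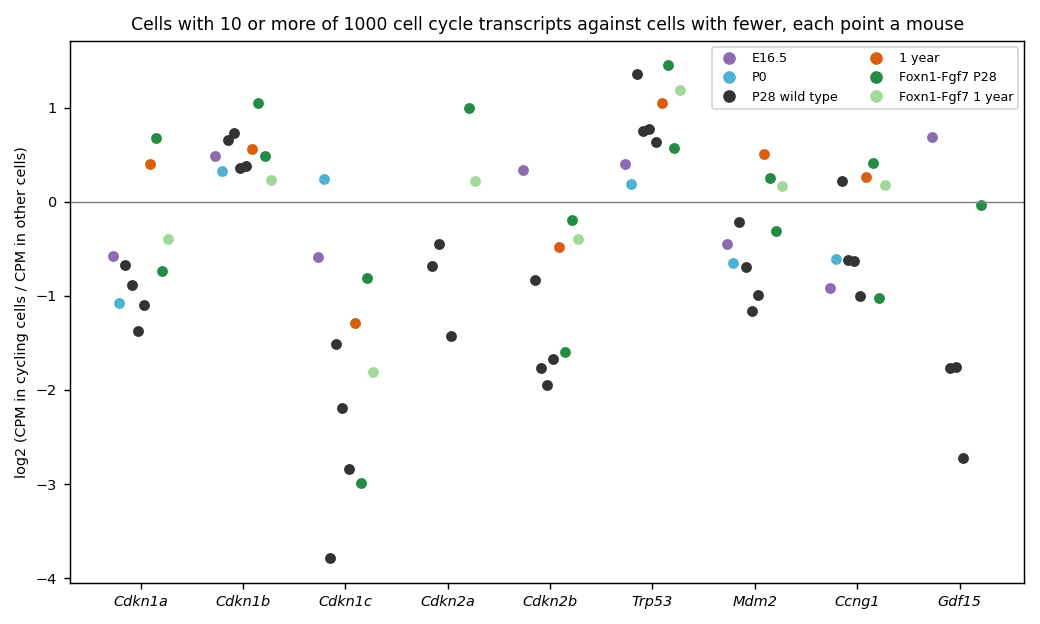
The log2 ratio of the level in cells with 10 or more of 1000 cell cycle transcripts over that in other cells of the same mouse (y axis) for each of the 9 genes, 1 point per mouse where both groups held more than 3 transcripts. All 10 points lie above 0 for *Trp53* and *Cdkn1b*, and all but 1 of those drawn lie below 0 for *Cdkn1c*.

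With the lower cut, 3 members passed among 28.8% of 15453 genes (11.4% higher and 17.4% lower). *Trp53* was higher by 0.31 (SE 0.05, edgeR adjusted p = 0.00028) and *Cdkn1b* by 0.19 (SE 0.04, adjusted p = 0.0033). *Cdkn2b* was lower by 0.30 (SE 0.10, adjusted p = 0.037), a call that was lost without the barcoded male (0.080), female A (0.12), female B (0.077), the transgenic P28 male (0.082) or the transgenic P28 female (0.067), each an adjusted p. *Ccng1* passed without the non-barcoded male (-0.29, adjusted p = 0.011) or the transgenic P28 male (-0.24, adjusted p = 0.048), and *Cdkn1c* without the barcoded male (-0.60, adjusted p = 0.047). Without the block no member passed, the adjusted p being 0.51 for *Trp53* and 0.99 for *Cdkn1b*.

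Classes of cells were then set by markers among cells not called cycling. One class held cells led by cTEC markers such as *Psmb11* and *Prss16* (cTEC-list cells), the other cells led by the Aire-stage mTEC list, in which *Cd74* and *H2-Aa* were the most abundant genes (Cd74-list cells). The latter is a broad class, since MHC class II genes are also found in other TECs. The P28 mice held 9, 65, 20 and 52 cTEC-list cells and, from the barcoded male on, 2334, 894 and 945 Cd74-list cells, the non-barcoded male having fewer of these. At E16.5 these were 727 and 23 cells, at P0 513 and 22, and at 1 year 23 and 1012.

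At P28, cTEC-list cells were compared with Cd74-list cells. Of the 9 members, 6 were called lower and 2 higher in cTEC-list cells, where 40.5% of 13586 genes were called (15% higher and 25.5% lower in cTEC-list cells). The calls of the 2 higher genes were lost when some mice were left out, as given below. Of the 6, *Cdkn2a*, *Cdkn2b* and *Gdf15* passed the filter on low values only through the Cd74-list cells, where they are high, so that their calls carry no weight and their values are given without a test. *Cdkn2b* had 5.86, 3.73, 7.26 and 8.55 CPM in cTEC-list cells (1 to 5 transcripts per mouse) and 66.2, 81.2, 91.5 and 84.8 CPM in Cd74-list cells. *Gdf15* had 0 to 3 transcripts per mouse in cTEC-list cells and 42.01, 63.8, 52.4 and 56.999 CPM in Cd74-list cells. *Cdkn1c* had 11.7, 17.4, 14.5 and 13.7 CPM against 471, 66.2, 150.5 and 128.9 CPM (log2 change -3.19, SE 0.29, edgeR adjusted p = 1.1e-09). The *Cdkn1c* levels in cTEC-list cells rest on 2, 14, 4 and 8 transcripts in the 4 mice, so its p value is given no weight either.

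*Cdkn1a* had 40.99, 610.3, 523.8 and 334.1 CPM in cTEC-list cells and 323, 1218, 750.3 and 730.4 CPM in Cd74-list cells (-1.18, SE 0.19, edgeR adjusted p = 1.8e-05), lower in 4 of 4 mice although the mice overlapped. *Mdm2* had 70.3, 244, 76.2 and 78.7 CPM against 133.7, 434.5, 149.9 and 157.7 CPM (-0.97, SE 0.16, adjusted p = 3.0e-05). *Cdkn2a* had at most 2 transcripts per mouse in cTEC-list cells and 7.21 to 12.3 CPM in Cd74-list cells. *Cdkn1b* was higher in cTEC-list cells by 0.57 (SE 0.18, adjusted p = 0.012) and *Ccng1* by 0.40 (SE 0.16, adjusted p = 0.049), in 4 of 4 mice each. *Cdkn1b* did not pass without the barcoded male (0.38, adjusted p = 0.23), without female B (0.55, adjusted p = 0.063) or by DESeq2 (0.49, adjusted p = 0.077). *Ccng1* passed under no omission of a mouse (adjusted p = 0.11, 0.14, 0.066 and 0.12 without the non-barcoded male, the barcoded male, female A and female B). *Trp53* differed by -0.32 (SE 0.18, adjusted p = 0.17). Of other marker lists, thymocyte markers were higher in cTEC-list cells (12 of 13 tested), whereas late mTEC (6 of 6), fibroblast (5 of 5), parathyroid (3 of 3) and tuft cell markers (3 of 6) were lower, and their part in the members' differences was not tested. Without cells that carry thymocyte transcripts, 8 members were again called. That count includes genes whose calls carry no weight and is not read as support. Without the mouse as a block, *Cdkn1a* (-1.02), *Mdm2* (-0.87), *Cdkn1b* (0.55) and *Ccng1* (0.40) did not pass (adjusted p = 0.20, 0.20, 0.080 and 0.23). Of 29 further p53 targets, 9 were lower and 3 higher, beside 25.5% and 15% over all genes, with *Pmaip1* at -4.25 and *Fas* at -2.35 (adjusted p = 1.6e-10 and 1.8e-07). These changes rest on the 9 to 65 cTEC-list cells of each mouse, and the transcripts of both genes in them are not given here.

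**Figure D5:**
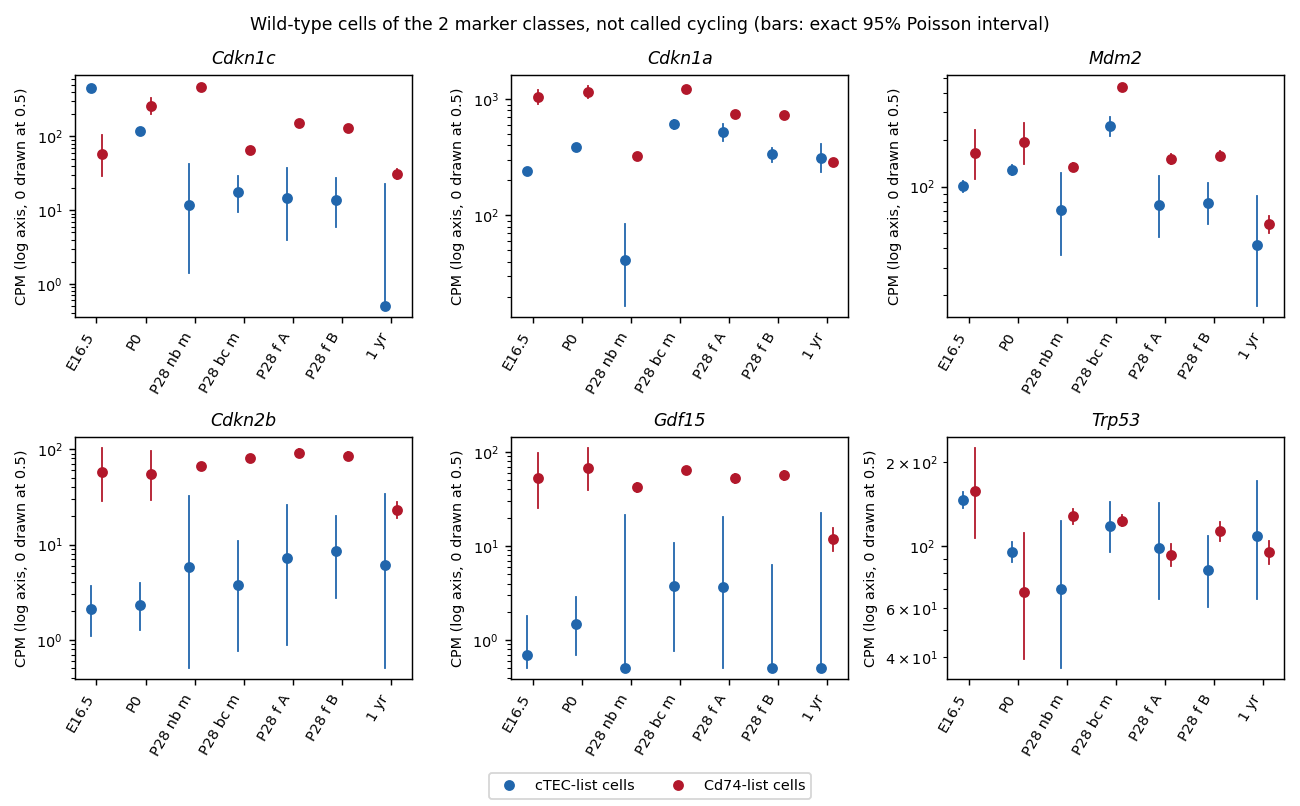
Level of 6 of the genes (CPM, log axis, 0 drawn at 0.5) in cTEC-list cells (blue) and Cd74-list cells (red) of the 7 wild-type mice, with bars for the exact 95% Poisson interval. *Cdkn2b* and *Gdf15* lay higher in Cd74-list cells at every age, whereas *Cdkn1c* lay higher in cTEC-list cells at E16.5 (451.5 against 57.99 CPM) and lower there at P28.

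Within classes, the early ages looked different from the sums over all cells. In Cd74-list cells no member passed at E16.5 (0.118% of 18667 genes called) or at P0 (0.00536% called), and DESeq2 called none at either age. At an unadjusted p below 0.05 there were 0 members at E16.5 and 3 at P0 (*Ccng1*, *Cdkn1c* and *Trp53*). The share of all genes at that threshold is not given, so these counts are not read as a result about the members. *Cdkn2b* had 57.995 CPM at E16.5, 55.6 CPM at P0 and 66.2 to 91.5 CPM at P28 (log2 change -0.51, SE 0.72, edgeR adjusted p = 0.78 at E16.5). *Gdf15* had 52.8, 68.5 and 42.01 to 63.8 CPM (-0.13, SE 0.59, adjusted p = 0.92). The early values rest on 23 and 22 cells with 10 to 16 transcripts of each gene, and their counting intervals were wide (28.9 to 103.7 CPM for *Cdkn2b* at E16.5). At 1 year, Cd74-list cells had 22.99 CPM of *Cdkn2b* and 11.8 CPM of *Gdf15*, below all P28 mice.

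In cTEC-list cells, *Cdkn1c* was the single member called at E16.5 (11% of 9786 genes called, 4.81% higher and 6.17% lower) and at P0 (1.88% called, 0.981% higher and 0.899% lower). It stood at 451.5 CPM at E16.5, 120 CPM at P0 and 11.7 to 17.4 CPM in the P28 mice, with no overlap. The log2 change was 4.83 at E16.5 (SE 0.29, edgeR adjusted p = 1.2e-05) and 2.94 at P0 (SE 0.30, adjusted p = 0.00091). The P28 levels rest on 2, 14, 4 and 8 transcripts, against 2585 at E16.5 and 719 at P0. The gene passed the filter on low values through mice in which it is higher than at P28, so these p values carry no weight. The class itself differed between ages, as thymocyte markers (13 of 13 tested), cTEC markers (8 of 10) and Aire-stage mTEC markers (5 of 6) were lower at E16.5, and 1 of 13, 3 of 10 and 2 of 6 at P0, and the part of these in the *Cdkn1c* level was not tested. Without cells that carry thymocyte transcripts the *Cdkn1c* change was 5.19. DESeq2 and the omission of any 1 of the P28 mice gave the same calls, which rest on the same few P28 transcripts. *Cdkn2a*, *Cdkn2b* and *Gdf15* did not pass the filter on low values in this class. *Cdkn1a* was at 243 CPM at E16.5 and 387.9 CPM at P0 (-1.05, SE 0.33, adjusted p = 0.064 at E16.5), and passed without female B (-1.28, adjusted p = 0.016). Of the further p53 targets, *Ddit4* was higher (3.38) and *Ephx1* lower (-2.92) at E16.5. *Hmga2*, from the list of INK4 locus regulators, was higher by 4.96 at that age. Its P28 transcripts in this class are not given here, and its call is given no weight.

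Sorted libraries, which took no part in these fits, gave values by surface marker. In cells sorted for Ly51, a cTEC surface marker, *Cdkn2b* had 2.35, 5.94, 2.16 and 9.75 CPM (non-barcoded male, females A and B, 1 year), *Cdkn1c* 13.8, 6.68, 13.4 and 4.87 CPM, and *Gdf15* 0.29, 1.11, 1.29 and 0.70 CPM. These values were below those of the unsorted cells of the same mice. *Ccng1* had 199, 221.8, 191.1 and 171.4 CPM in Ly51+ cells, above the 84.2, 174.7, 146.6 and 115.01 CPM of unsorted cells. In cells of the P0 mouse that bind UEA1, a lectin for mTECs, *Cdkn2b* had 60.2 CPM, *Gdf15* 48.1 CPM, *Cdkn1a* 797 CPM and *Cdkn1c* 591 CPM, against 3.13, 3.63, 356 and 183 CPM in its unsorted cells. In UEA1+ cells of the non-barcoded P28 male the same genes had 35.8, 6.72, 253.1 and 45.4 CPM, all below the 48.9, 21.9, 355 and 614 CPM of its unsorted cells. The values of sorted cells are given as a description and were not tested.

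Single cells with and without a *Cdkn1a* transcript were compared at equal depth of 1000 transcripts, as a description without a test. Cells with *Cdkn1a* held more *Mdm2* in 10 of 10 mice (median ratio 1.76, range 1.49 to 2.49) and more *Ccng1* in 10 of 10 (median 1.68). The 29 further p53 targets were higher in 10 of 10 mice (1.30), as were the integrated stress response genes (1.37), and the early response and heat shock genes (1.12), which dissociation of tissue can raise. Markers of late mTECs were also higher in 10 of 10 mice (1.59), as were those of the Aire-stage mTEC list (1.12), and their part in the other ratios was not tested. *Trp53* was higher in 7 of 10 (median 1.08). The 95 cell cycle genes were higher in 2 of 10 (median 0.94). Of the remaining members, cells with *Cdkn1a* held more *Gdf15* in 8 of 10 mice (median 2.595) and more *Cdkn1c* in 8 of 10 (1.93). They held more *Cdkn2b* in 9 of 10 (1.66), *Cdkn1b* in 9 of 10 (1.06) and *Cdkn2a* in 4 of 10 (0.55). Higher values were thus not limited to p53 targets. Cells with *Mdm2* in turn held more *Cdkn1a* in 10 of 10 mice (median 1.84). Cells with *Cdkn1c* held more *Cdkn1a* in 7 of 10 (1.36) and more *Mdm2* in 6 of 10 (1.05).

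Across the 20 sums of 10 mice and cycling or other cells, the genes with the most similar log2 CPM profiles were listed for 8 of the members by Pearson's r, which is a description because sums share mice and libraries. *Mdm2* was most like *Ppp1r15b*, *Bbc3* (Puma, a p53 target) and *Dnajb9* (r = 0.920, 0.919 and 0.918), and *Cdkn1a* like *Plekhf2*, *Zfp809* and *Eaf1* (0.858, 0.835 and 0.8289). *Cdkn1c* was most like *Pygl* (0.920), *Cdkn2a* like *Crb3* (0.973), *Cdkn2b* like *A730036I17Rik* (0.980) and *Gdf15* like *Cldn13* (0.972). *Trp53* was most like *Polr1a* (0.864) and *Ccng1* like *Gpc1* (0.921). Within the group, r was 0.913 between *Cdkn2b* and *Gdf15*, 0.895 between *Cdkn2a* and *Cdkn2b*, 0.806 between *Cdkn1a* and *Mdm2*, and -0.10 between *Cdkn1a* and *Trp53*. The sums include the barcoded male, highest in *Cdkn1a* (1106 CPM) and far above the others in *Mdm2* (390.1 CPM), and r without this mouse was not computed. *Cdkn2a* had 4 transcripts at E16.5 and 2 at P0, so its r values rest in part on very few transcripts.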

How the data were processed

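CEL-Seq2 tables of single TECs were analysed. The authors aligned reads with BWA 0.6.2-r126 after bcl2fastq 2.17.1.14, as the submitters' processing notes name them, to gene models in sense direction, discarded reads with several alignments, and converted counted molecular barcodes to transcripts by binomial statistics with 4096 barcodes. The deposited values are therefore expected counts that are not whole. Each table lists 30381 genes and spike-ins, of which 57 spike-ins were left out. Of 380 libraries read, 378 were used, and 2 in which under 80% of transcripts lay in the 96 expected columns were left out. Cells were kept from 3000 transcripts (E16.5, P0, *Foxn1-Fgf7* at 1 year), 1500 (P28) or 1000 (1-year wild type), which left 25154, of which 23585 were unsorted. Doublets were not called.

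Expected counts were summed per mouse, rounded and tested with edgeR 4.0.16 in R 4.3.3 (TMM, filterByExpr, quasi-likelihood test, Benjamini-Hochberg, threshold 0.05). The model held 6 groups of age and genotype and well volume. Cells of the same mouse were compared with the mouse as a block, since both sums come from 1 animal. Age comparisons within classes were chosen after seeing the data, as was the cut of 10 cell cycle transcripts as a comparison of its own. The 4 libraries labelled as biological replicates were counted with the non-barcoded male, as were those labelled as technical replicates. Whether the latter repeat cells of other libraries was not tested. DESeq2 1.42.0, other scalings and filters, the omission of mice and other cell groups served as alternatives. Intervals are exact 95% Poisson or binomial intervals and cover counting error alone. The fit was tested on simulated data, where it missed part of the changed genes in the age and genotype comparisons and unchanged genes made up a larger share of their calls than the threshold in every draw. No source says which libraries were made on which day, so p-values measure the spread between these mice. The members and lists were chosen with earlier results of these data known. Genes of the other lists are named where they passed and had the largest changes of their list in that comparison. Sums and intervals were computed with Python 3.11.15, mainly with pandas 2.3.3 and scipy 1.17.1.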

Additional observations from a re-analysis of the deposited data

Results flagged for a closer look

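Among the 4 wild-type P28 mice, *Cdkn1c* in the non-barcoded male (613.7 CPM) and *Mdm2* in the barcoded male (390.1 CPM) lay far from the other mice, with a gap to the nearest mouse of 0.891 and 0.884 of the whole range, past Dixon's critical value for 4 samples. Of 9 genes examined these were 2, and chance gives such a gap in about 1 of 20 groups.

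In the comparison of cycling (10 or more of 1000 transcripts) with other cells, all 4 wild-type P28 mice lay on one side of 0 and the wild-type mouse of another age on the other for 5 genes. The log2 ratio of that mouse was 0.401 for *Cdkn1a* and 0.504 for *Mdm2* at 1 year, 0.241 for *Cdkn1c* at P0, and 0.336 for *Cdkn2b* and 0.693 for *Gdf15* at E16.5. Transgenic mice also lay on that other side, with *Cdkn1a* at 0.682 in the P28 male and *Mdm2* at 0.248 in the P28 male and 0.166 in the 1-year male. In the comparison of cTEC-list with Cd74-list cells the same held for *Cdkn1a* at 1 year (0.136), *Cdkn1c* at E16.5 (2.961), and *Ccng1* at E16.5 (-0.541) and P0 (-0.877), and *Cdkn1a* stood at 0.287 in the transgenic P28 female and 0.438 in the transgenic 1-year male. Each of those ages has 1 mouse, and these differences were not tested.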

How the results depend on the processing

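Of the alternatives computed for the change of a member, 1102 kept direction and side of the threshold, 60 no longer passed, 49 newly passed and 31 changed sign, and the cause was not tested for those that moved. The ages with 1 mouse could not be left out, so every age comparison rests on that mouse, and low counts of *Cdkn2a*, *Cdkn2b* and *Gdf15* in small classes limit what could be detected. Shares of genes called are over the genes each alternative tested. At E16.5, P0, 1 year and in *Foxn1-Fgf7* mice, omission of each other mouse gave 16.77% to 42.09%, 3.968% to 29.88%, 0.07298% to 3.7% and 0.008791% to 9.798% of genes called, and 4 to 6, 0 to 4, 0 to 3 and 0 to 4 members. Without the term for well volume the shares were 14.3%, 2.336%, 0.1424% and 0.00445%, and in cells of 10 or more cycling transcripts 9.812%, 5.117%, 0.08722% and 0.2907%. In cycling cells at the lower cut they were 8.134% at P0 and 0.2414% at 1 year. At 1 year and in *Foxn1-Fgf7* mice, DESeq2 called 2.499% and 3.096% and the fit with no filter 0.7832% and 1.185%, and the biological replicate libraries as their own mouse gave 1.168% in the latter.

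Between cycling and other cells at the lower cut, 2.498% of genes were called without the replicate block, 13.89% by DESeq2, 12.47% with no filter, 16.77% in the 4 P28 mice, and 43.36% at the stricter cut (43.92% without thymocyte transcripts). At the stricter cut 19.59% were called without the replicate block and 25.95% by DESeq2, and DESeq2 called 15.96% between the marker classes. Within cTEC-list cells DESeq2 called 2.304% at E16.5 and 0.4166% at P0 (1.361% to 2.577% at P0 when P28 mice were left out), and within Cd74-list cells 0.7012% and 0.4356% (0.01077% to 0.5584% and 0 to 0.1752%). The omission of P28 mice gave 8.835% to 11.09% at E16.5 in cTEC-list cells, 30.33% to 42.14% between the classes, and omission of any mouse 36.56% to 43.5% at the stricter cut.

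Signs changed as follows (log2). In cells of 10 or more cycling transcripts, *Cdkn1b* was -0.019 at E16.5, *Trp53* -0.603 at P0 and 0.034 at 1 year, *Ccng1* 0.382 at 1 year, and *Cdkn1a* 0.042 and *Gdf15* 0.267 in *Foxn1-Fgf7* mice. At P0, *Cdkn1c* was -0.029 without the term for well volume and *Trp53* -0.093 in cycling cells. Leaving out mice moved *Mdm2* from -0.776 to 0.109 at P0, and in *Foxn1-Fgf7* mice *Cdkn2b* from -2.401 to 0.336, *Trp53* from -0.498 to 0.105, *Mdm2* from -1.109 to 0.278 and *Gdf15* from -1.96 to 0.601. In cycling cells at the lower cut, *Cdkn2a* was -0.007 without the replicate block, -0.126 with mitotic genes alone, -0.640 at the stricter cut, -0.575 there without thymocyte transcripts, -0.888 there in the P28 mice, and -0.001 to 0.170 when a mouse was left out, and *Gdf15* was 0.009 without thymocyte transcripts. In cTEC-list cells *Mdm2* ranged from -0.654 to 0.378 at E16.5 and from -0.269 to 0.764 at P0 (0.001 by DESeq2), and *Trp53* from -0.142 to 0.132 at P0. In Cd74-list cells *Cdkn2a* was 0.059 by DESeq2, 0.024 without thymocyte transcripts and -0.174 to 0.087 without a mouse at E16.5, and *Mdm2* ranged from -0.832 to 0.037 at E16.5 and from -0.605 to 0.266 at P0.

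The share of cycling cells with mitotic genes alone was 46.79% at P0, 30.97%, 39.39%, 37.02% and 45.6% in the P28 mice, 25.98% at 1 year, and in the transgenic mice 23.14% (P28 male), 38.89% (P28 female) and 21.59% (1-year male). With the stricter cut these were 25.73% at E16.5, 11.57%, 4.586%, 5.228%, 4.513%, 8.562%, 1.843%, 3.333%, 6.137% and 1.453%, and female B had 36.25% at the lower cut without thymocyte transcripts.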
